A study of Homo sapiens with 12 samples.

Results

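The genes of MHC class I and class II antigen presentation were followed in THP-1 cells, an established human monocytic leukemia line. They were chosen by gene symbol from a list of class I, immunoproteasome, peptide loading and class II genes. The matching used no expression value, but the list was drawn up with earlier results of these data known. All 34 were found among the 62914 entries of the gene tables. RNA sequencing covered 4 groups with 3 libraries in each. The first group received 1 μg/mL of 3'-3'-cGAMP, a cyclic dinucleotide that binds the adaptor STING and served as the positive control for antiviral signalling, for 8 h. The remaining groups were untreated cells and cells given 20 μM or 50 μM of chlorquinaldol, a chlorinated hydroxyquinoline antiseptic, for 8 h. All groups share the THP-1 background, which is a single cell line. The labels name no genetic change, no vehicle and no culture time for the untreated cells, so solvent and harvest time cannot be told apart from the treatments. They do not say whether the replicates were separate cultures, so p-values measure only the spread between these samples, which may be technical.

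MHC class I molecules pair a heavy chain with beta-2 microglobulin and show cytosolic peptides to CD8 T cells. Proteasomes cut the peptides, the TAP transporter carries them into the endoplasmic reticulum, and a loading complex places them on the heavy chain. MHC class II molecules are assembled with the invariant chain, exchange its remnant for endosomal peptides with the help of HLA-DM, and are shown to CD4 T cells. NLRC5 drives transcription of the class I genes and CIITA of the class II genes, both through the RFX complex bound at the gene promoters, and interferons raise many genes of the class I route. Monocytes carry class I constantly and class II at levels that depend on their state.

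Libraries held 18914542 to 18979948 estimated counts with cGAMP, 18910085 to 19023005 in untreated cells, 17620929 to 18926562 at 20 μM and 19011578 to 19222607 at 50 μM. Correlations between libraries were 0.986 to 0.991 within groups and 0.904 to 0.976 between groups. All 8 monocyte markers were present, with summed levels of 1070 to 1170 CPM with cGAMP, 937 to 963 CPM in untreated cells, 899 to 973 CPM at 20 μM and 955 to 1130 CPM at 50 μM. Among them LYZ averaged 472 CPM in untreated cells, 245 CPM at 20 μM and 217 CPM at 50 μM, while ITGAM averaged 59.9, 182 and 184 CPM in the same order. The 6 B cell markers summed to 52 to 72.4 CPM with cGAMP against 7.53 to 8.54 CPM in untreated cells, which was mostly PAX5 (55.2 against 1 CPM on average), and MS4A1, a defining B cell marker, had 0 counts in all 12 libraries. The 8 T and NK cell markers summed to 29.2 to 31.3 CPM in untreated cells, 28.6 to 33.4 CPM at 20 μM and 47.5 to 54.5 CPM at 50 μM. That sum was almost all NCAM1 (20.4 CPM on average in untreated cells and 35.3 CPM at 50 μM) and NKG7 (9.40 and 14.4 CPM). The T cell genes CD3D, CD3E, CD3G, CD2 and CD8A had at most 2 counts in any library. The 8 dendritic cell markers, mostly FLT3, summed to 66.5 to 71.9 CPM in untreated cells, 52.9 to 69.3 CPM at 20 μM and 32.2 to 42.7 CPM at 50 μM, with CLEC9A and CLEC4C at 0. FLT3 was called lower at 50 μM (log2 −0.95 ± 0.11), while LAMP3 and CCR7, the other dendritic markers tested, were called higher there on few counts (25 and 52 counts over the 3 libraries, against 4 and 5 in untreated cells). LAMP3 had 121 counts over the cGAMP libraries and was called higher with cGAMP as well. LAMP3 passed the count filter through its cGAMP libraries and CCR7 through its 50 μM libraries. A difference was thus built into their being tested, and its size over few untreated counts is poorly fixed. The part of these marker shifts in the results was not tested.

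Levels here are CPM, that is counts scaled to the library size, which compare a gene between groups, and levels of different genes are compared only in the deposited FPKM, which is per length. In untreated cells B2M, the class I light chain, had the highest mean among the 34 genes at 1409 ± 107 FPKM (SD, n = 3), followed by the heavy chain HLA-B at 655 ± 10.8 FPKM. CALR had 456 ± 23.2, PDIA3 275 ± 3.97, PSME2 264 ± 20.8 and PSMB8 205 ± 9.05 FPKM. PDIA3 and PSME2 in that order did not differ beyond their spread. Class II was uneven: HLA-DRB1 had 103 ± 6.73 FPKM, its partner chain HLA-DRA 6.13 ± 0.401 FPKM and the invariant chain CD74 154 ± 3.95 FPKM. The estimate for HLA-DRB1 may include reads of other DRB genes, because HLA genes are near-identical and polymorphic and reads can be split or moved between them in every HLA value given here. HLA-DPB1 (62 counts over 12 libraries) and HLA-DOA (2 counts), whose product restrains HLA-DM, were too low to test, which left 32 members tested among 16628 genes.

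Several promoters of the class I route carried a common sequence, shown because it is the textbook binding site of the interferon-activated factors (the interferon-stimulated response element, core taken as 2 runs of GAAA with any 2 bases between them, searched on both strands). RefSeq (GRCh38.p14) gave a window of 250 bases before to 50 after the first listed start for 29 of the 34 genes; HLA-E, PDIA3, NLRC5, CIITA and HLA-DRA had none. The core was present in 9 of these 29 windows, against 3.65% of all 27305 gene windows of that length. Those 9 are the class I chains HLA-F and B2M, the loading genes TAP1, TAP2, TAPBP and ERAP1, the proteasome subunit PSMB10 and the activator subunits PSME1 and PSME2. Each is printed 5′ to 3′ on the strand of its gene with 10 bases on either side, and capitals mark the match or overlapping matches, which read as the reverse complement where they begin with T.
HLA-F (chr6:29723268-29723297, plus strand): ctccccagagTTTCTCTTTCtctcccaacc
B2M (chr15:44711363-44711398, plus strand): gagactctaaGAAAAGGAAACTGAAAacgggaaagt
TAP1 (chr6:32853813-32853848, minus strand): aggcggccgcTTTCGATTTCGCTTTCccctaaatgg
TAP2 (chr6:32838778-32838807, minus strand): ctggggaagcGAAAGCGAAAgctgcccgag
TAPBP (chr6:33314073-33314108, minus strand): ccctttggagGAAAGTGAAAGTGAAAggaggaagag
ERAP1 (chr5:96807924-96807953, minus strand): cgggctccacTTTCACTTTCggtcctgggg
PSMB10 (chr16:67936852-67936881, minus strand): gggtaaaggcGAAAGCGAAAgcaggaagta
PSME1 (chr14:24136189-24136218, plus strand): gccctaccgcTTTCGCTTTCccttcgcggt
PSME2 (chr14:24146619-24146648, minus strand): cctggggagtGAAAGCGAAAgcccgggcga
B2M, TAP1 and TAPBP held 2 overlapping matches each, and the other 6 held 1. The core of the gamma-activated sequence, TTCNNNGAA, was in 1 member window (HLA-DQA1) against 7.88% of all windows, and the CCAAT box, ATTGG or its complement, was in 18 of 29 against 35.7%. In 12 further start windows of the members, the interferon element was found in 3, which belong to RFX5, ERAP2 and PSMB8. A match is a run of letters and was not tested for binding.

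With cGAMP 15 of the 18 genes of the class I route rose, and 1 of the 9 tested class II genes did. That 1 was MARCHF1, whose product marks class II for degradation. A gene was called when its adjusted p (edgeR quasi-likelihood, Benjamini-Hochberg over 16628 genes) was below 0.05. Of the 32 members tested, 17 were called higher and 1 lower than in untreated cells, against 23.3% of all tested genes called (11.6% higher and 11.8% lower). The median log2 change of the members was 0.36 and that of all tested genes −0.05. By role, 5 of 5 class I chains, 5 of 8 loading genes and 5 of 5 immunoproteasome genes were higher, while 1 of 5 transactivators was. Of the class II chains 0 of 6 were higher and 1 lower, and of the exchange and turnover genes 1 of 3 was higher. These are bulk libraries, in which fewer cells of a type and less RNA per cell cannot be told apart.

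Chlorquinaldol moved members in both directions. At 20 μM 7 members were called higher and 19 lower, where 55.1% of all tested genes were called (27.1% higher and 28.0% lower), with a median log2 change of −0.44 against 0.00 for all genes. At 50 μM 11 were called higher and 16 lower, where 66.9% of all tested genes were called (32.2% higher and 34.7% lower), with a median of −0.26 against −0.03. In all, 81.2% of the tested members were called at 20 μM and 84.4% at 50 μM. All 5 transactivators were called lower on the counts at both doses, although CIITA overlapped the untreated libraries in FPKM. All 5 immunoproteasome genes were lower at 20 μM and 4 of 5 at 50 μM. The 8 loading genes were divided, with 3 higher and 3 lower at 20 μM and 6 higher and 2 lower at 50 μM. Among the 9 tested class II genes, 4 were higher and 2 lower at 20 μM, and 4 higher and 3 lower at 50 μM. MARCHF1 was among the higher ones at both doses.

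**Figure D1:**
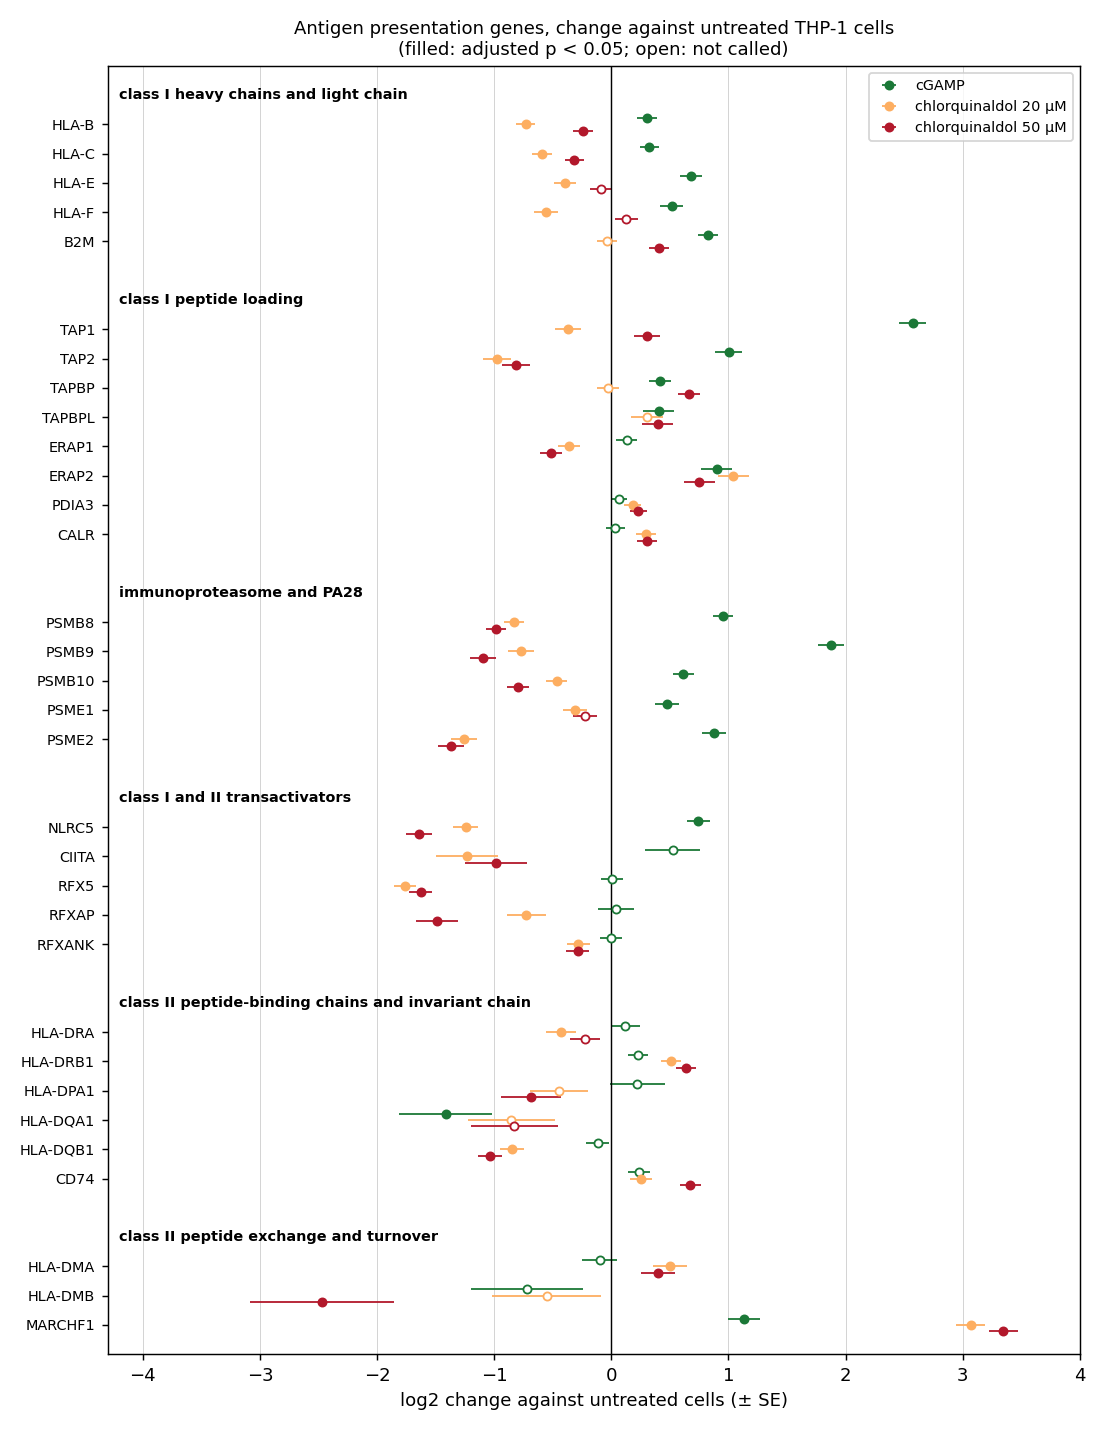
Log2 change against untreated cells (x axis, ± SE) of the 32 tested genes, grouped by role, for cGAMP and for 20 μM and 50 μM chlorquinaldol, where filled points have an adjusted p below 0.05 and open points do not. TAP1 at 2.57 and PSMB9 at 1.87 with cGAMP and MARCHF1 at 3.07 and 3.35 with chlorquinaldol lie farthest to the right, and HLA-DMB at −2.47 with 50 μM, which rests on few counts, farthest to the left.

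Of the 5 regulators, NLRC5 alone was called with cGAMP, and all 5 were called lower on the counts with chlorquinaldol. NLRC5, the class I transactivator (chromosome 16, 56989485 to 57083531), had 86.5, 91.3 and 109 CPM in the cGAMP libraries, 61.4, 55.2 and 54.4 CPM in the untreated ones, 24.2, 20.4 and 27.5 CPM at 20 μM and 18.2, 19.2 and 17.4 CPM at 50 μM. No group overlapped another. It rose 1.68-fold with cGAMP (log2 0.74 ± 0.10, SE; adjusted p = 3.77e-05), and fell to 0.423 of the untreated level at 20 μM (log2 −1.24 ± 0.11, adjusted p = 5.62e-08) and 0.321 at 50 μM (log2 −1.64 ± 0.11, adjusted p = 7.71e-10). CIITA, the class II transactivator, had 4.66, 6.19 and 6.64 CPM with cGAMP, 3.87, 4.05 and 4.24 CPM in untreated cells, 1.70, 0.854 and 2.55 CPM at 20 μM and 1.51, 2.19 and 2.41 CPM at 50 μM. All 3 cGAMP libraries lay above the untreated ones, but the log2 change of 0.52 ± 0.23 was not called (adjusted p = 0.115). That CIITA difference was called with no low-count filter (0.023) and with the groups compared alone (0.00736), in a range of 0.00736 to 0.296 over the alternatives. On the counts CIITA was called lower at 20 μM (log2 −1.23 ± 0.27, adjusted p = 0.00082) and at 50 μM (log2 −0.99 ± 0.26, adjusted p = 0.00309). In the deposited FPKM both doses overlapped the untreated libraries. CIITA had 0.54, 0.69 and 0.80 FPKM in untreated cells, 0.46, 0.22 and 0.81 at 20 μM and 0.60, 0.18 and 0.62 at 50 μM.

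RFX5, RFXAP and RFXANK encode the RFX complex, which binds the X box of class I and class II promoters. RFX5 (chromosome 1, 151340640 to 151347357) had 117, 126 and 115 CPM with cGAMP, 126, 117 and 113 CPM in untreated cells, 30.7, 32.9 and 41.6 CPM at 20 μM and 39.1, 38.4 and 37.8 CPM at 50 μM. The cGAMP and untreated libraries were intermixed and every chlorquinaldol library lay far below them. RFX5 fell to 0.295 of the untreated level at 20 μM (log2 −1.76 ± 0.10, adjusted p = 3.12e-10) and 0.323 at 50 μM (log2 −1.63 ± 0.10, adjusted p = 1.5e-10), with a log2 change of 0.01 ± 0.09 for cGAMP. RFXAP had 7.92, 7.21 and 6.32 CPM with cGAMP, 6.83, 7.07 and 6.93 CPM in untreated cells, 3.29, 4.16 and 5.15 CPM at 20 μM and 2.38, 2.08 and 2.96 CPM at 50 μM. It was lower at both doses, by log2 −0.72 ± 0.16 (adjusted p = 0.00116) and −1.49 ± 0.18 (adjusted p = 9.13e-07), and the dose step from 20 μM to 50 μM was itself called (log2 −0.76 ± 0.19, adjusted p = 0.00368). RFXANK averaged 48.2 ± 5.22 CPM with cGAMP, 48.3 ± 3.43 CPM in untreated cells, 39.7 ± 2.32 CPM at 20 μM and 39.6 ± 4.13 CPM at 50 μM. It was lower by a smaller amount at both doses (log2 −0.28 ± 0.10 at each, adjusted p = 0.0208 and 0.016). That call was lost at 20 μM without untreated replicate 2 (0.0773) or 3 (0.0735) or chlorquinaldol replicate 2 (0.113) or 3 (0.115) and with no low-count filter (0.0528), in a range of 0.0137 to 0.115. At 50 μM it was lost without untreated replicate 2 (0.0597) or 3 (0.0571) or chlorquinaldol replicate 1 (0.256) or 3 (0.0569) and with no low-count filter (0.0577), in a range of 0.0109 to 0.256.

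**Figure D2:**
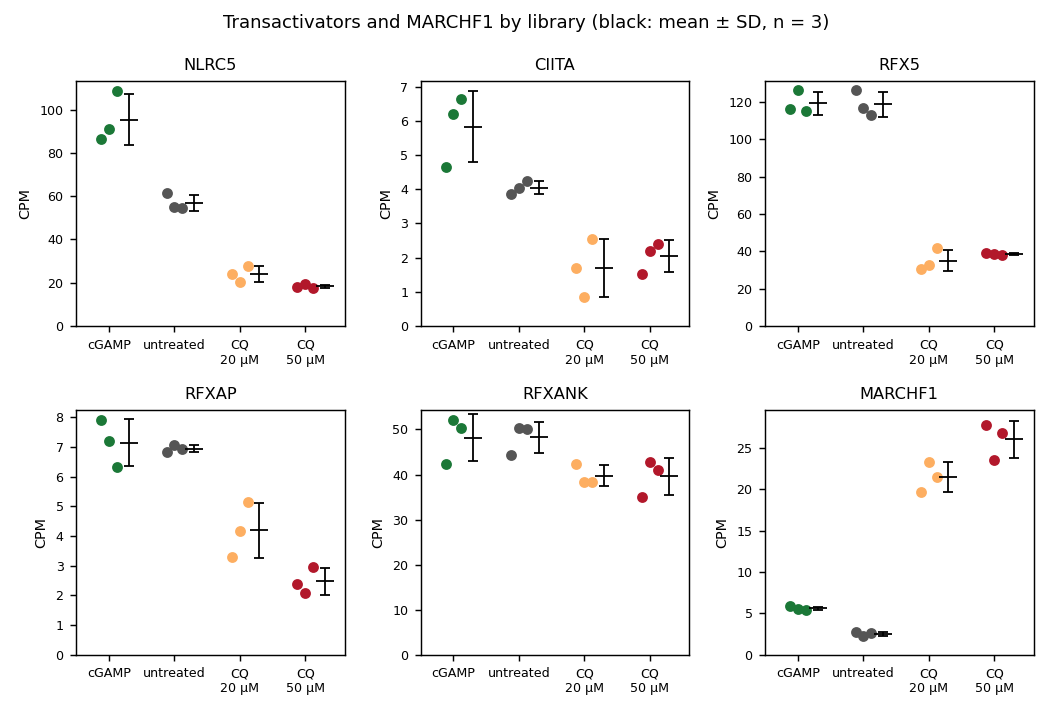
CPM in each library (points) with the group mean ± SD (black, n = 3) for NLRC5, CIITA, RFX5, RFXAP, RFXANK and MARCHF1, with cGAMP, untreated, 20 μM and 50 μM from left to right. NLRC5 is highest with cGAMP and lowest at 50 μM, RFX5 lies near 119 CPM in the cGAMP and untreated groups and at 35.1 and 38.5 CPM with chlorquinaldol, and MARCHF1 is lowest in untreated cells and highest at 50 μM.

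Class I chains followed the dose unevenly. HLA-B (chromosome 6, 31269491 to 31357188) had 938, 1049 and 1105 CPM with cGAMP, 803, 841 and 857 CPM in untreated cells, 508, 524 and 476 CPM at 20 μM and 664, 733 and 718 CPM at 50 μM. The 4 groups did not overlap, and the 50 μM libraries lay between the 20 μM and the untreated ones. HLA-B was higher with cGAMP (log2 0.31 ± 0.08, adjusted p = 0.0116) and lower at 20 μM (log2 −0.73 ± 0.08, adjusted p = 1.02e-06) and 50 μM (log2 −0.24 ± 0.08, adjusted p = 0.0147). The cGAMP call was lost without cGAMP replicate 3 (0.0601) or untreated replicate 1 (0.0547), in a range of 0.000111 to 0.0601. The 50 μM call was lost without chlorquinaldol replicate 1 (0.206), 2 (0.0662) or 3 (0.0771) and with no low-count filter (0.13), in a range of 0.0114 to 0.206. HLA-C averaged 222 ± 20.6 CPM with cGAMP, 177 ± 6.64 CPM in untreated cells, 118 ± 8.04 CPM at 20 μM and 142 ± 3.39 CPM at 50 μM. HLA-E averaged 422 ± 48.2, 263 ± 19.1, 200.1 ± 10.5 and 248 ± 22.9 CPM in that order of groups, and HLA-F 59.8 ± 5.77, 41.8 ± 4.67, 28.4 ± 0.311 and 45.6 ± 4.79 CPM. HLA-C, HLA-E and HLA-F were also called higher with cGAMP (log2 0.32, 0.68 and 0.52) and lower at 20 μM (log2 −0.59, −0.40 and −0.56). At 50 μM HLA-C was lower (log2 −0.32 ± 0.08, adjusted p = 0.0023), while HLA-E (log2 −0.08 ± 0.10) and HLA-F (log2 0.13 ± 0.10) were not called. HLA-F was called higher at 50 μM without chlorquinaldol replicate 1 (0.0492), in a range of 0.0492 to 0.56. HLA-E presents signal-sequence peptides to NK cells, and HLA-F is a nonclassical chain.

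B2M (chromosome 15, 44711487 to 44718877) had 1706, 1761 and 1710 CPM with cGAMP, 969, 896 and 1052 CPM in untreated cells, 920, 1051 and 879 CPM at 20 μM and 1268, 1254 and 1339 CPM at 50 μM. The untreated and 20 μM libraries overlapped, and those at 50 μM and with cGAMP lay above both. It was 1.78-fold higher with cGAMP (log2 0.83 ± 0.09, adjusted p = 1.52e-06) and 1.32-fold higher at 50 μM (log2 0.40 ± 0.09, adjusted p = 0.000507). At 20 μM its log2 change was −0.03 ± 0.09. Between the doses, all 5 class I chains were called higher at 50 μM than at 20 μM, where 38.1% of all tested genes were called (19.1% higher and 19.0% lower). Those log2 changes were 0.49 for HLA-B, 0.28 for HLA-C, 0.31 for HLA-E, 0.68 for HLA-F and 0.44 for B2M.

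**Figure D3:**
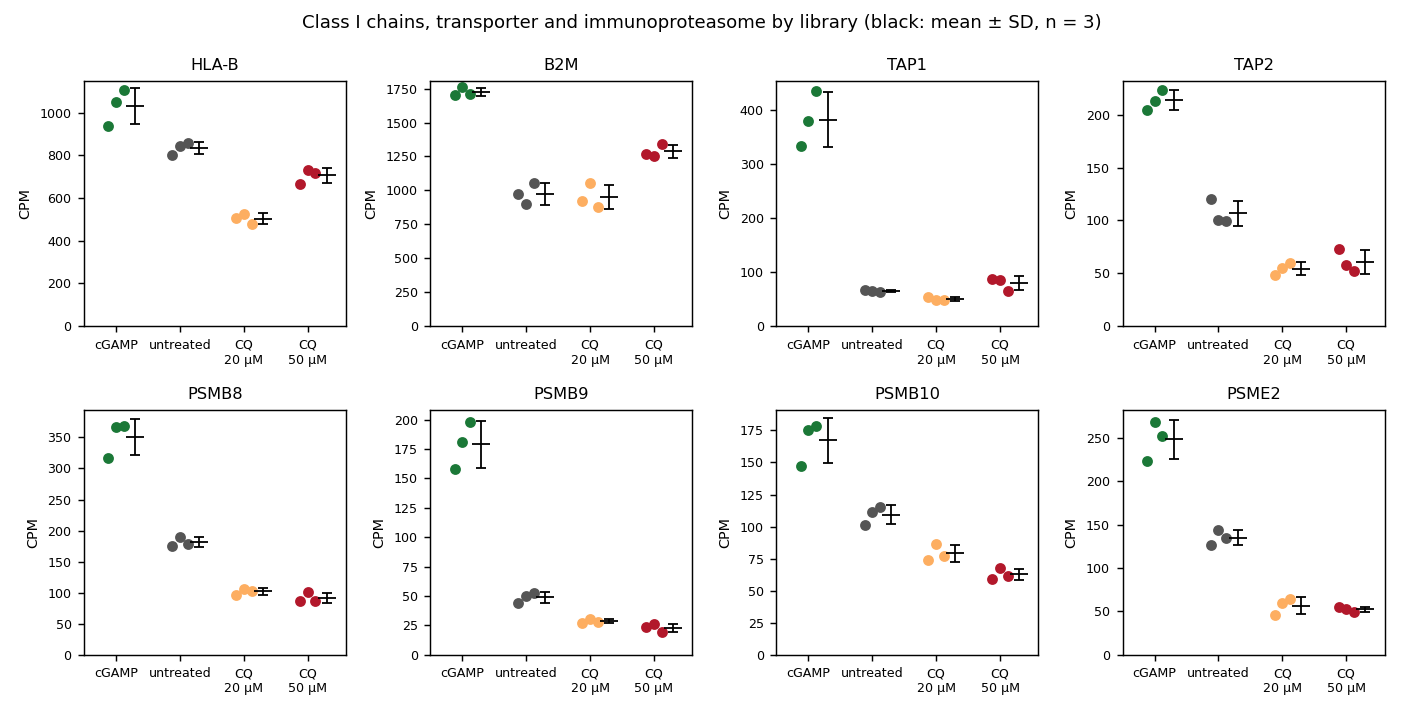
CPM in each library (points) with the group mean ± SD (black, n = 3) for HLA-B, B2M, TAP1, TAP2, PSMB8, PSMB9, PSMB10 and PSME2, with cGAMP, untreated, 20 μM and 50 μM from left to right. The cGAMP libraries are the highest in every panel, while B2M and TAP1 are higher at 50 μM than at 20 μM and PSMB8, PSMB9 and PSMB10 have lower means at 50 μM.

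In peptide loading the transporter subunits took different courses. TAP1 (chromosome 6, 32845209 to 32853978) had 333, 380 and 435 CPM with cGAMP, 65.7, 65.3 and 62.1 CPM in untreated cells, 53.3, 47.8 and 48.3 CPM at 20 μM and 87.3, 86.0 and 64.9 CPM at 50 μM. The cGAMP libraries stood far above the rest, and the lowest 50 μM library lay within the untreated range. TAP1 was 5.95-fold higher with cGAMP (log2 2.57 ± 0.12, adjusted p = 1.14e-11), lower at 20 μM (log2 −0.37 ± 0.11, adjusted p = 0.0103) and higher at 50 μM (log2 0.30 ± 0.11, adjusted p = 0.0237). The 20 μM call was lost without chlorquinaldol replicate 2 (0.0667) or 3 (0.0596), in a range of 0.00126 to 0.0667, and the 50 μM call without untreated replicate 2 (0.0504) or 3 (0.0767), in a range of 0.00025 to 0.0767. TAP2, the partner subunit, had 204, 213 and 223 CPM with cGAMP, 120, 100 and 99.1 CPM in untreated cells, 48.2, 54.7 and 60.0 CPM at 20 μM and 73.2, 57.5 and 51.5 CPM at 50 μM. Its groups overlapped only between the chlorquinaldol doses. TAP2 was higher with cGAMP (log2 1.00 ± 0.11, adjusted p = 4.28e-06) and lower at 20 μM (log2 −0.97 ± 0.12, adjusted p = 2.13e-06) and at 50 μM (log2 −0.81 ± 0.12, adjusted p = 8.19e-06). Within a library the FPKM ratio of TAP1 to TAP2 was 3.46 ± 0.255 with cGAMP, 1.22 ± 0.108 in untreated cells, 1.90 ± 0.386 at 20 μM and 2.54 ± 0.423 at 50 μM (SD, n = 3 each), so it lay above the untreated ratio in all treated libraries.

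The editors of the peptide cargo were less alike. TAPBP, tapasin, which bridges TAP and the heavy chain, had 204, 241 and 264 CPM with cGAMP, 176, 184 and 173 CPM in untreated cells, 190, 159 and 173 CPM at 20 μM and 294, 285 and 265 CPM at 50 μM. It was called higher with cGAMP (log2 0.41 ± 0.09, adjusted p = 0.00408) and at 50 μM (log2 0.66 ± 0.09, adjusted p = 7.28e-06), and its 20 μM libraries overlapped the untreated ones. TAPBPL, a tapasin relative that edits peptides outside the loading complex, averaged 8.13 ± 1.26 CPM with cGAMP, 6.13 ± 0.248 CPM in untreated cells, 7.58 ± 0.684 CPM at 20 μM and 8.08 ± 0.695 CPM at 50 μM. It was higher with cGAMP (log2 0.41 ± 0.13, adjusted p = 0.034) and at 50 μM (log2 0.40 ± 0.13, adjusted p = 0.0141). Its cGAMP call was lost in DESeq2 (0.0599), with a block for the replicate number (0.0525), and without cGAMP replicate 3 (0.18) or untreated replicate 1 (0.0998), 2 (0.1) or 3 (0.0554), in a range of 0.0118 to 0.18. At 20 μM its log2 change of 0.30 ± 0.13 was not called, but was with RLE scaling (0.0479) and without chlorquinaldol replicate 3 (0.0205), in a range of 0.0205 to 0.14. The chaperones CALR and PDIA3, which hold the heavy chain during loading, were higher with chlorquinaldol, CALR by log2 0.30 ± 0.08 and 0.31 ± 0.08 and PDIA3 by 0.18 ± 0.07 and 0.23 ± 0.07 at 20 μM and 50 μM. CALR averaged 741 ± 44.3 CPM with cGAMP, 723 ± 38.1 CPM in untreated cells, 888 ± 79.3 CPM at 20 μM and 894 ± 12.9 CPM at 50 μM, and PDIA3 466 ± 11.1, 445 ± 2.33, 506 ± 27.5 and 523 ± 18.8 CPM in that order. With cGAMP neither was called (log2 0.04 ± 0.08 for CALR and 0.07 ± 0.07 for PDIA3). The 20 μM call of PDIA3 (adjusted p = 0.0388) was lost without untreated replicate 1 (0.0878), 2 (0.0953) or 3 (0.0764), with the replicate block (0.0571) and with no low-count filter (0.054), in a range of 0.00162 to 0.0953.

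ERAP1 and ERAP2, the aminopeptidases that trim peptides in the endoplasmic reticulum, moved apart with chlorquinaldol. ERAP2 had 7.71, 6.41 and 5.88 CPM with cGAMP, 3.42, 3.54 and 3.78 CPM in untreated cells, 7.24, 7.29 and 7.60 CPM at 20 μM and 6.32, 5.86 and 5.91 CPM at 50 μM. In CPM every treated library was above every untreated one. In the deposited FPKM untreated replicate 2, at 2.10, was the highest of the 12 libraries, and the means were 1.62 ± 0.201 with cGAMP, 1.30 ± 0.691 in untreated cells, 1.85 ± 0.197 at 20 μM and 1.48 ± 0.201 at 50 μM. On the counts ERAP2 was called higher with cGAMP (log2 0.90 ± 0.13, adjusted p = 9.33e-05), at 20 μM (log2 1.04 ± 0.13, adjusted p = 4.05e-06) and at 50 μM (log2 0.75 ± 0.14, adjusted p = 9.92e-05). ERAP1 averaged 67.9 ± 6.84 CPM with cGAMP, 62 ± 3.09 CPM in untreated cells, 48.2 ± 3.46 CPM at 20 μM and 43.3 ± 4.77 CPM at 50 μM. It was lower at 20 μM (log2 −0.36 ± 0.09, adjusted p = 0.00332) and at 50 μM (log2 −0.52 ± 0.09, adjusted p = 0.000108), with a log2 change of 0.13 ± 0.09 for cGAMP. ERAP1 overlaps CAST on the opposite strand over 18786 bases, and reads could be exchanged where strand was not used.

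The 5 immunoproteasome genes were called higher with cGAMP and lower at 20 μM, and 4 of the 5, all but PSME1, were called lower at 50 μM. PSMB8, PSMB9 and PSMB10 encode the inducible catalytic subunits that replace PSMB5, PSMB6 and PSMB7 of the constitutive proteasome. PSMB9 (chromosome 6, 32844136 to 32859585) had 158, 181 and 198 CPM with cGAMP, 44.1, 49.6 and 52.6 CPM in untreated cells, 27.1, 30.5 and 28.2 CPM at 20 μM and 23.3, 26.2 and 19.0 CPM at 50 μM, with no overlap between any of the groups. It was 3.67-fold higher with cGAMP (log2 1.87 ± 0.11, adjusted p = 3.94e-10) and lower at 20 μM (log2 −0.77 ± 0.11, adjusted p = 1.71e-05) and 50 μM (log2 −1.10 ± 0.11, adjusted p = 1.83e-07). PSMB8 had 317, 366 and 368 CPM with cGAMP, 175, 190 and 178 CPM in untreated cells, 96.1, 106 and 103 CPM at 20 μM and 86.3, 101 and 87.1 CPM at 50 μM. Its log2 changes were 0.95 ± 0.09 with cGAMP, −0.83 ± 0.09 at 20 μM and −0.98 ± 0.09 at 50 μM, all called. PSMB10 averaged 167 ± 17.5 CPM with cGAMP, 109 ± 7.43 CPM in untreated cells, 79 ± 6.34 CPM at 20 μM and 62.8 ± 4.47 CPM at 50 μM. It was called in the same directions as PSMB8, by log2 0.61 ± 0.09, −0.47 ± 0.09 and −0.80 ± 0.09.

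The activator that opens the proteasome gate is built from PSME1 and PSME2. PSME2 had 224, 268 and 252 CPM with cGAMP, 127, 143 and 135 CPM in untreated cells, 45.6, 59.3 and 64.5 CPM at 20 μM and 54.7, 53.3 and 49.1 CPM at 50 μM. The doses overlapped each other and no other group. PSME2 was higher with cGAMP (log2 0.88 ± 0.11, adjusted p = 8.51e-06) and fell to 0.418 of the untreated level at 20 μM (log2 −1.26 ± 0.11, adjusted p = 5.56e-08) and 0.388 at 50 μM (log2 −1.37 ± 0.11, adjusted p = 6.98e-09). PSME1 averaged 173 ± 21.5 CPM with cGAMP, 124 ± 13.7 CPM in untreated cells, 100.5 ± 8.66 CPM at 20 μM and 106 ± 5.96 CPM at 50 μM. It was higher with cGAMP (log2 0.48 ± 0.10, adjusted p = 0.00238) and lower at 20 μM (log2 −0.31 ± 0.10, adjusted p = 0.0164), a call lost without untreated replicate 2 (0.107) or chlorquinaldol replicate 3 (0.15), in a range of 0.00878 to 0.15. At 50 μM its log2 change of −0.22 ± 0.10 was not called (adjusted p = 0.0613), but was without untreated replicate 1 (0.026), in a range of 0.026 to 0.393. The FPKM ratio of PSME2 to PSME1 was 1.88 ± 0.0712 with cGAMP, 1.49 ± 0.107 in untreated cells, 0.800 ± 0.23 at 20 μM and 0.691 ± 0.0363 at 50 μM. PSME2 overlaps RNF31 by 888 bases on the opposite strand.

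Ratios within a library show the inducible subunits against the ones they replace. PSMB8 over PSMB5 in FPKM was 5.07 ± 0.308 with cGAMP, 2.72 ± 0.08 in untreated cells, 1.93 ± 0.103 at 20 μM and 1.56 ± 0.227 at 50 μM (SD, n = 3 each). PSMB9 over PSMB6 was 4.16 ± 0.102, 1.30 ± 0.0457, 0.930 ± 0.0571 and 0.734 ± 0.17 in the same order of groups. PSMB10 over PSMB7 was 1.99 ± 0.055, 1.44 ± 0.0267, 1.23 ± 0.0192 and 0.971 ± 0.127 in that order. In all 3 ratios every cGAMP library lay above and every chlorquinaldol library below the untreated ones, which says that the members of each pair changed unequally. The constitutive subunits had smaller changes: PSMB5, PSMB6 and PSMB7 were lower at 20 μM by log2 −0.34, −0.33 and −0.24, and none was called with cGAMP.

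TAP1 and PSMB9 lie head to head. The RefSeq start sites are 488 bases apart, at 32853704 for TAP1 and 32854192 for PSMB9, and the TAP1 interferon elements at 32853823 to 32853838 lie between them, 354 bases from the PSMB9 start. The TAP1 window is shown because most of it lies between the start sites of these genes, which were both called higher with cGAMP. It shares only 13 bases with the PSMB9 window, which held no interferon element. Whether the TAP1 elements act on PSMB9 was not tested.
TAP1 promoter window (chr6:32853655-32853954, GRCh38.p14, minus strand, matches in capitals): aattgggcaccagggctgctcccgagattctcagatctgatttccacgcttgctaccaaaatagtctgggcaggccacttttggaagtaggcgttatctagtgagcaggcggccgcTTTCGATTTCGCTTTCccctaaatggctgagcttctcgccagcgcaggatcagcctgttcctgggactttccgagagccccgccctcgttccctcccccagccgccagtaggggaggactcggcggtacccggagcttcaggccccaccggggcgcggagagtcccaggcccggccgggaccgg
The pair parted at 50 μM, where TAP1 was higher and PSMB9 lower than in untreated cells. The FPKM ratio of TAP1 to PSMB9 was 0.810 ± 0.02 with cGAMP, 0.480 ± 0.0404 in untreated cells, 0.665 ± 0.0879 at 20 μM and 1.36 ± 0.0673 at 50 μM, with no overlap between the groups. The annotated genes overlap by 8770 bases on opposite strands, so without strand information reads from either could be counted to the other.

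**Figure D4:**
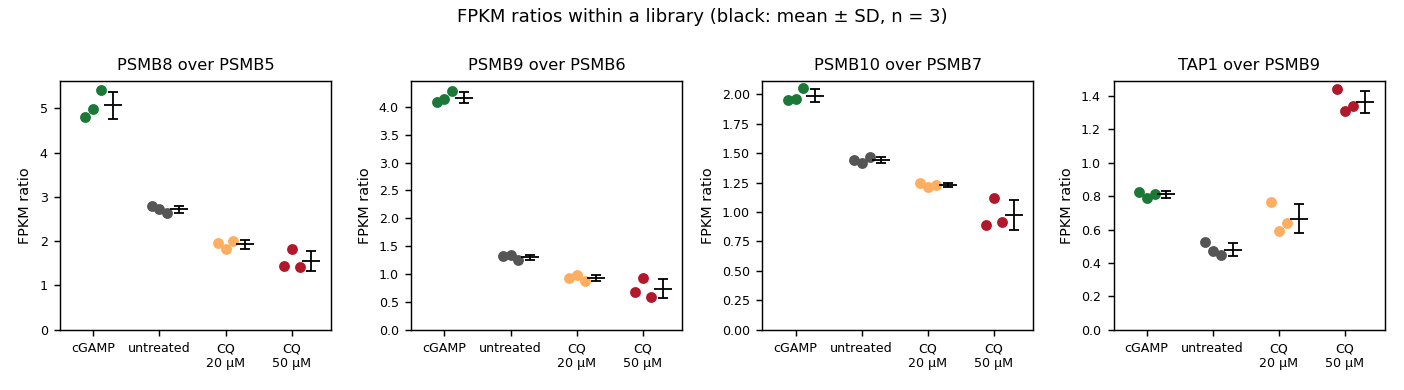
FPKM ratio in each library (points) with the group mean ± SD (black, n = 3) for PSMB8 over PSMB5, PSMB9 over PSMB6, PSMB10 over PSMB7 and TAP1 over PSMB9, with cGAMP, untreated, 20 μM and 50 μM from left to right. The first 3 ratios are highest with cGAMP and have their lowest mean at 50 μM, while TAP1 over PSMB9 is highest at 50 μM, at 1.36.

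Members with the interferon element in their window were compared by count with the others. With cGAMP 8 of the 9 were called higher and 0 lower, ERAP1 being the exception, with a median log2 change of 0.61. Over all tested genes the shares were 11.6% higher and 11.8% lower. Of the 18 tested members whose window lacked it, 7 were higher and 1 lower, with a median of 0.23. Those 7 include ERAP2 and PSMB8, which hold the element in another start window, and PSMB9, whose start lies 354 bases from the TAP1 elements. The rest of them, HLA-B, HLA-C, TAPBPL and MARCHF1, had no match in any window searched. RFX5 also holds it in another start window, and was not called with cGAMP and was lower at both chlorquinaldol doses. At 20 μM the 9 had 0 higher and 7 lower, and the 18 had 6 higher and 8 lower. Over all tested genes 27.1% were higher and 28.0% lower at that dose. At 50 μM 32.2% of all tested genes were higher and 34.7% lower. There the 9 had 3 higher (B2M, TAP1 and TAPBP, the 3 with 2 overlapping matches) and 4 lower, and the 18 had 7 higher and 10 lower. The link of those 3 to the double matches was noticed after their values were seen and was not tested. The 5 members without a window had 2 higher and 0 lower with cGAMP, with a median of 0.52. They had 1 higher and 4 lower at 20 μM and 1 higher and 2 lower at 50 μM. Because the members were chosen with earlier results known, these counts are no test of the element, and its part in the changes was not tested.

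Class II did not move as a unit. HLA-DRB1, the beta chain of HLA-DR, had 106, 122 and 121 CPM with cGAMP, 91.7, 98.6 and 108 CPM in untreated cells, 144, 150 and 131 CPM at 20 μM and 159, 163 and 143 CPM at 50 μM. Every chlorquinaldol library was above every untreated one, and the cGAMP and untreated libraries overlapped. HLA-DRB1 was higher at 20 μM (log2 0.51 ± 0.09, adjusted p = 0.000104) and at 50 μM (log2 0.64 ± 0.09, adjusted p = 5.37e-06). With cGAMP its log2 change of 0.23 ± 0.09 was not called (adjusted p = 0.073), but was in DESeq2 (0.0384), with no low-count filter (0.0366), with the groups compared alone (0.01) and without cGAMP replicate 1 (0.0433) or untreated replicate 3 (0.0457), in a range of 0.01 to 0.27. HLA-DRA, the alpha chain, had 6.68, 6.73 and 5.88 CPM with cGAMP, 6.13, 6.05 and 5.59 CPM in untreated cells, 4.11, 4.72 and 4.35 CPM at 20 μM and 5.45, 4.88 and 4.87 CPM at 50 μM. It was lower at 20 μM (log2 −0.43 ± 0.13, adjusted p = 0.00846), a call lost in DESeq2 (0.0501), with no low-count filter (0.0785) and without chlorquinaldol replicate 1 (0.0617), in a range of 0.0116 to 0.0785. At 50 μM the log2 change of HLA-DRA was −0.23 ± 0.13 and was not called. The FPKM ratio of HLA-DRB1 to HLA-DRA was 18.1 ± 2.38 with cGAMP, 16.9 ± 2.25 in untreated cells, 32.2 ± 2.5 at 20 μM and 30.6 ± 2.47 at 50 μM. The estimates for these partner chains thus changed unequally with chlorquinaldol. The HLA-DRB1 estimate may include reads of other DRB genes, and their part in the ratio was not tested.

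HLA-DQB1, the beta chain of HLA-DQ, had 21.4, 23.3 and 22.9 CPM with cGAMP, 24.0, 24.3 and 25.0 CPM in untreated cells, 12.7, 14.6 and 13.5 CPM at 20 μM and 13.2, 10.2 and 12.4 CPM at 50 μM. The chlorquinaldol libraries stood well below the rest. It fell to 0.556 of the untreated level at 20 μM (log2 −0.85 ± 0.10, adjusted p = 1.65e-06) and 0.488 at 50 μM (log2 −1.03 ± 0.10, adjusted p = 8.06e-08). HLA-DQA1, the alpha chain, was near the limit of detection, with 5, 6 and 5 counts with cGAMP against 15, 12 and 18 counts in untreated cells, 6, 9 and 9 at 20 μM and 11, 7 and 5 at 50 μM. It was called lower with cGAMP (log2 −1.41 ± 0.40, adjusted p = 0.0154), and it passed the count filter through its untreated libraries, so a difference was partly built into its being tested. The call was lost in DESeq2 (0.0887) and without cGAMP replicate 1 (0.0637), 2 (0.0503) or 3 (0.0543) or untreated replicate 3 (0.0686), in a range of 0.01 to 0.0887. HLA-DPA1 was low as well, at 1.79 ± 0.326 CPM with cGAMP, 1.53 ± 0.215 CPM in untreated cells, 1.13 ± 0.14 CPM at 20 μM and 0.946 ± 0.179 CPM at 50 μM. Its lower call at 50 μM (log2 −0.69 ± 0.26, adjusted p = 0.0247) was lost in DESeq2 (0.143), with no low-count filter (0.102) and without untreated replicate 1 (0.0936) or chlorquinaldol replicate 1 (0.126) or 2 (0.105), in a range of 0.0252 to 0.143.

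CD74, the invariant chain that blocks the groove until class II reaches the endosome, had 166, 196 and 196 CPM with cGAMP, 152, 162 and 160 CPM in untreated cells, 194, 192 and 179 CPM at 20 μM and 274, 264 and 219 CPM at 50 μM. All treated libraries lay above the untreated ones. The rise at 50 μM was 1.60-fold (log2 0.67 ± 0.09, adjusted p = 4.36e-06). At 20 μM it was log2 0.25 ± 0.09 (adjusted p = 0.0262) and was lost without untreated replicate 1 (0.0889), 2 (0.0506) or 3 (0.0529), in a range of 0.00598 to 0.0889. With cGAMP the log2 change of 0.24 ± 0.09 was not called (adjusted p = 0.0735), but was in DESeq2 (0.0371), with no low-count filter (0.0287), with the groups compared alone (0.00614) and without cGAMP replicate 1 (0.0353), in a range of 0.00614 to 0.205.

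HLA-DMA and HLA-DMB form HLA-DM, which exchanges the invariant chain remnant for peptide. HLA-DMA had 5.12, 4.97 and 4.74 CPM with cGAMP, 4.52, 5.28 and 6.11 CPM in untreated cells, 8.17, 7.46 and 6.90 CPM at 20 μM and 5.92, 8.11 and 6.90 CPM at 50 μM. It was higher at 20 μM (log2 0.50 ± 0.14, adjusted p = 0.00707) and at 50 μM (log2 0.40 ± 0.15, adjusted p = 0.0233). The 50 μM call was lost without untreated replicate 1 (0.118) or 2 (0.0566) or chlorquinaldol replicate 2 (0.066), in a range of 0.0033 to 0.118. HLA-DMB had 6, 8 and 8 counts with cGAMP, 7, 15 and 16 in untreated cells, 6, 11 and 8 at 20 μM and 2, 0 and 4 at 50 μM. With only the 50 μM and untreated groups compared, HLA-DMB failed the count filter and could not be fitted. In the main test it was called lower at 50 μM (log2 −2.47 ± 0.61, adjusted p = 0.00182), with a fitted change of −1.83 without chlorquinaldol replicate 2 and −3.31 without replicate 3. With 6 counts over the 3 libraries at 50 μM, and a place in the test that it owed to other groups, the size of that change is poorly fixed. HLA-DMA overlaps BRD2, a far more abundant gene, by 435 bases on the opposite strand.

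MARCHF1 had the largest rise of any of the 32 with chlorquinaldol. It encodes a membrane ubiquitin ligase that marks class II and CD86 for lysosomal degradation (chromosome 4, 163524298 to 164384050). MARCHF1 had 5.85, 5.55 and 5.39 CPM with cGAMP, 2.76, 2.31 and 2.59 CPM in untreated cells, 19.7, 23.3 and 21.5 CPM at 20 μM and 27.8, 23.6 and 26.8 CPM at 50 μM. The 4 groups did not overlap. It was 2.19-fold higher with cGAMP (log2 1.13 ± 0.14, adjusted p = 9.89e-06), 8.39-fold higher at 20 μM (log2 3.07 ± 0.12, adjusted p = 1.32e-11) and 10.2-fold higher at 50 μM (log2 3.35 ± 0.12, adjusted p = 7.62e-13). MARCHF8, a related ligase with overlapping targets, was called lower with cGAMP (log2 −0.54 ± 0.10) and higher at 20 μM (log2 0.83 ± 0.10) and 50 μM (log2 1.05 ± 0.10).

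**Figure D5:**
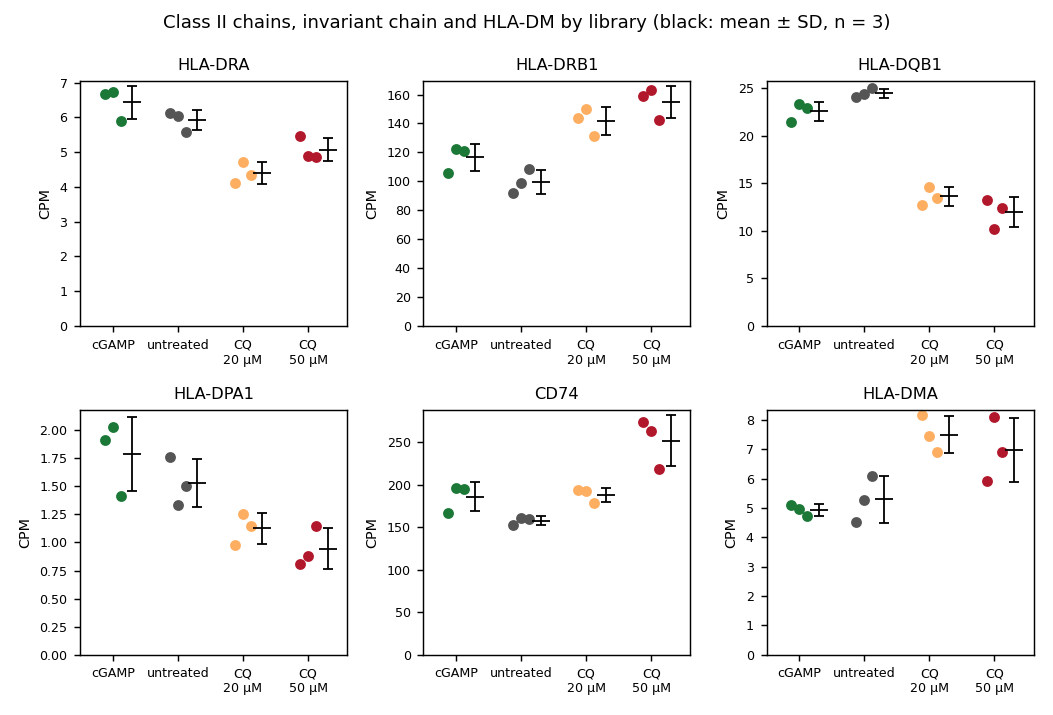
CPM in each library (points) with the group mean ± SD (black, n = 3) for HLA-DRA, HLA-DRB1, HLA-DQB1, HLA-DPA1, CD74 and HLA-DMA, with cGAMP, untreated, 20 μM and 50 μM from left to right. With chlorquinaldol HLA-DRB1 and CD74 lie above the untreated libraries and HLA-DQB1 below them.

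Between the doses, 9 members were called higher and 5 lower at 50 μM than at 20 μM, 43.8% of those tested against 38.1% of all tested genes. Beside the 5 class I chains, the higher ones were TAP1 (log2 0.67 ± 0.11, adjusted p = 0.000165), TAPBP (log2 0.69 ± 0.09, adjusted p = 2.17e-05), CD74 (log2 0.42 ± 0.09, adjusted p = 0.0015) and MARCHF1 (log2 0.28 ± 0.10, adjusted p = 0.0308). The MARCHF1 step was lost without chlorquinaldol 20 μM replicate 1 (0.0874) or 3 (0.0605) or 50 μM replicate 1 (0.0745) or 3 (0.0584), with no low-count filter (0.062) and with only the groups compared (0.0712), in a range of 0.0139 to 0.0874. Beside RFXAP the lower ones were NLRC5, PSMB9, PSMB10 and HLA-DMB. NLRC5 (log2 −0.40 ± 0.11, adjusted p = 0.0106) was lost without 20 μM replicate 3 (0.0862), in a range of 0.00215 to 0.0862. PSMB10 (log2 −0.33 ± 0.09, adjusted p = 0.00946) was lost without 20 μM replicate 2 (0.0686) or 50 μM replicate 1 (0.0581), in a range of 0.00351 to 0.0686. PSMB9 (log2 −0.32 ± 0.12, adjusted p = 0.0369) was lost without 20 μM replicate 2 (0.153) or 3 (0.0812) or 50 μM replicate 1 (0.0827) or 3 (0.216), with RLE scaling (0.0529) and with only the groups compared (0.0604), in a range of 0.0156 to 0.216. HLA-DMB (log2 −1.92 ± 0.66, adjusted p = 0.0292) was lost without 20 μM replicate 2 (0.12) or 3 (0.0549) or 50 μM replicate 1 (0.0683) or 2 (0.118) and in DESeq2 (0.0619), in a range of 0.0166 to 0.12, and could not be fitted with only the groups compared, where it failed the count filter.

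Set directly against cGAMP, 20 μM chlorquinaldol had 4 members higher and 22 lower, where 55.6% of all tested genes were called (27.6% higher and 28.0% lower). At 50 μM 6 were higher and 22 lower, where 66.7% were called (32.0% higher and 34.7% lower). The median log2 changes of the members were −0.75 and −0.64, against 0.00 and −0.04 for all genes. All 5 class I chains, all 5 immunoproteasome genes and all 5 transactivators were lower at each dose than with cGAMP. The largest were TAP1 (log2 −2.94 ± 0.12 at 20 μM and −2.27 ± 0.11 at 50 μM), PSMB9 (−2.65 ± 0.11 and −2.97 ± 0.12), PSME2 (−2.13 ± 0.11 and −2.24 ± 0.11) and NLRC5 (−1.99 ± 0.11 and −2.39 ± 0.11). MARCHF1 was higher at each dose (1.94 ± 0.11 and 2.22 ± 0.11). The RFXANK difference was lost at 20 μM without cGAMP replicate 2 (0.0857) or 3 (0.0753) or chlorquinaldol replicate 2 (0.0535) or 3 (0.0545), in a range of 0.00562 to 0.0857, and at 50 μM without cGAMP replicate 2 (0.0958) or 3 (0.0597) or chlorquinaldol replicate 1 (0.144), in a range of 0.00395 to 0.144.

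The wider pathway was read from 62 further genes in 8 lists, of which 54 were tested. With cGAMP 22 were called higher and 2 lower, with a median log2 change of 0.20. At 20 μM 27 were higher and 9 lower (median 0.33), and at 50 μM 33 were higher and 9 lower (median 0.54). The share called was 44.4% with cGAMP, 66.7% at 20 μM and 77.8% at 50 μM, against 23.3%, 55.1% and 66.9% of all tested genes in that order, and the counts of each list below stand against these same shares. In the list of interferon signalling upstream of the transactivators, 7 of 13 tested genes were higher with cGAMP, 6 at 20 μM and 11 at 50 μM, and 1 was lower at 50 μM. IRF1, which binds promoters of the class I route, was higher with cGAMP (log2 1.13 ± 0.11) and at 50 μM (log2 0.55 ± 0.11), and its 20 μM value was 0.08 ± 0.11. JAK2, a receptor-bound kinase, was higher with cGAMP (log2 1.73 ± 0.10) and lower at 50 μM (log2 −0.88 ± 0.11). STAT2 and IRF9, which act at the interferon element, were higher with cGAMP (log2 2.38 ± 0.10 and 2.48 ± 0.13), and IRF9 was also higher at 20 μM (log2 1.06 ± 0.13) and 50 μM (log2 1.92 ± 0.13). STAT2 had values of −0.08 ± 0.10 and 0.15 ± 0.10 at the doses and was not called. Receptor chains were higher with chlorquinaldol, IFNGR1 by log2 1.25 ± 0.10 and 1.43 ± 0.10, IFNGR2 by 1.09 ± 0.12 and 2.34 ± 0.12 and IFNAR1 by 0.77 ± 0.07 and 1.43 ± 0.07 at 20 μM and 50 μM. None of these receptor chains was called with cGAMP. IFNG, the gene of interferon gamma, was in the list and too low to test.

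Of the 8 co-stimulation and adhesion genes, 4 were higher and 1 lower with cGAMP, 5 were higher at 20 μM and 7 at 50 μM, with none lower at either dose. The share of all tested genes called higher was 11.6% with cGAMP, 27.1% at 20 μM and 32.2% at 50 μM. CD86, a ligand of CD28, was higher with cGAMP (log2 1.25 ± 0.18), at 20 μM (log2 2.55 ± 0.16) and at 50 μM (log2 2.47 ± 0.17). CD40 was higher at 20 μM (log2 1.20 ± 0.13) and 50 μM (log2 2.55 ± 0.13), the adhesion ligand ICAM1 likewise (log2 1.38 ± 0.21 and 3.67 ± 0.21), and CD58, a ligand of CD2, too (log2 1.33 ± 0.12 and 2.34 ± 0.12). CD80 had 220 counts over the cGAMP libraries, 21 over the untreated ones and 322 over those at 50 μM (log2 3.42 ± 0.40 with cGAMP and 4.05 ± 0.38 at 50 μM). CD274, which encodes the inhibitory ligand PD-L1, had 204 counts over the cGAMP libraries, 22 over the untreated ones and 113 over those at 50 μM, and was called higher with both (log2 3.25 ± 0.35 with cGAMP and 2.47 ± 0.37 at 50 μM). CD80 and CD274 passed the count filter through the groups in which they were high, so a difference was built into their being tested and its size over few untreated counts is poorly fixed. ICOSLG was lower with cGAMP (log2 −0.76 ± 0.20) and higher at 20 μM and 50 μM (log2 1.26 ± 0.18 and 2.02 ± 0.17).

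Of the 9 endosomal proteases and thiol reductase genes, which supply class II with peptides, 6 were higher with cGAMP, 7 at 20 μM and 8 at 50 μM, and none was lower (over all tested genes 11.6%, 27.1% and 32.2% were higher). CTSL was 1.77-fold higher with cGAMP, 1.92-fold at 20 μM and 9.82-fold at 50 μM. IFI30, the lysosomal thiol reductase, was higher by log2 0.85 ± 0.11, 0.75 ± 0.11 and 0.70 ± 0.11 in that order. In the list of 6 constitutive proteasome counterparts 1 was higher with cGAMP, and 1 was higher with 5 lower at 20 μM and 4 lower at 50 μM. The higher one was POMP, the assembly chaperone (log2 0.61 ± 0.10, 0.73 ± 0.10 and 1.05 ± 0.10), and PSME3, the nuclear proteasome activator, was lower at 20 μM (log2 −1.15 ± 0.09) and 50 μM (log2 −1.27 ± 0.09). Of the 4 enhanceosome partners of CIITA 2 were higher with each treatment, among them NFYC, a subunit of the CCAAT-binding factor, at 20 μM (log2 0.41 ± 0.08) and 50 μM (log2 0.76 ± 0.08). Of the 6 folding partners in the endoplasmic reticulum 0 were called with cGAMP, and 2 were higher and 2 lower at each dose. UGGT1, which checks glycoprotein folding, was among the lower ones (log2 −0.50 ± 0.08 at 20 μM and −0.81 ± 0.08 at 50 μM). Of the 5 tested nonclassical class I-like genes 1 was higher with cGAMP, 3 were higher and 1 lower at 20 μM, and 1 was higher and 1 lower at 50 μM. HLA-G was the lower one at 20 μM (log2 −0.80 ± 0.19) and at 50 μM (log2 −0.60 ± 0.19), and CD1D, which presents lipids, was higher with cGAMP (log2 0.50 ± 0.12) and at 20 μM (log2 0.93 ± 0.12). In the list of another class II ubiquitin ligase and receptors, with 3 of 6 tested, MARCHF8 was described above, LAG3, a class II receptor, was the higher one with cGAMP (115 counts over the 3 libraries against 11 in untreated cells, log2 3.40), which entered the test through its cGAMP libraries alone, so a difference was built in, and CD4 was lower at 20 μM (log2 −0.30 ± 0.07) and 50 μM (log2 −0.26 ± 0.07).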

How the data were processed

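Per the labels, RNA was oligo(dT)-selected and read on the BGI DNBSEQ platform. The authors deposited 1 table of estimated counts and 1 of FPKM for 12 libraries, made with RSEM on GRCh38 per the submitters' processing notes, which also name DESeq2 1.26.0. RSEM's version, annotation and strand setting are not given in the sources used here. Estimated counts, not whole in 42.31% of values above 0, were rounded. The 326 rows that name no gene (0.182 to 0.29% of counts) were left out.

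Counts were filtered with filterByExpr (minimum count 10), TMM-scaled (factors 0.905 to 1.06) and tested by quasi-likelihood F-tests (edgeR 4.0.16, R 4.3.3) in a single model of all 4 groups. P-values were adjusted over 16628 genes (Benjamini-Hochberg), with calls below 0.05. SE is the log2 change over the square root of F. With 3 against 3 an exact test cannot go below p = 0.1. The fit was checked on simulated data. CPM uses TMM-scaled sizes. Gene positions are from GENCODE 29. Alternatives were DESeq2 1.42.0, RLE scaling, no filter, a replicate block, only the groups compared, and each library left out. A range beside an adjusted p covers that result's alternatives.

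Members and lists were chosen with earlier results of these data known. Members called at least 2-fold against untreated cells and the leading member of each role are given per library, the others by mean; of each pathway list, up to 3 called genes with the smallest p in each comparison could be named. PSMB6, PSMB7, IRF1, JAK2, ICOSLG, PAX5, LYZ and ITGAM fall outside that rule and were picked with their values known. A further gene that the rule would bring in is not reported here.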

Additional observations from a re-analysis of the deposited data

How the results depend on the processing

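Of the 18 members called with cGAMP, 16 kept their call in DESeq2, 18 with RLE scaling and 15 to 17 with a library left out; of the 26 called at 20 μM 22 to 26 did over all alternatives, and of the 27 called at 50 μM 24 to 27. Counts that moved by over 1.5 times were small ones. Members lower with cGAMP numbered 1, 0 in DESeq2 and 0 to 1 with a library left out. Members lower at 50 μM than at 20 μM numbered 5, 3 with only the groups compared and 2 to 5 with a library left out. Members higher at 20 μM than with cGAMP numbered 4, and 2 to 4 with a library left out. The causes were not tested.

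Signs turned only for members that were not called in the main test. With cGAMP, RFXANK (log2 −0.003) was 0.014 in DESeq2, 0.013 with RLE scaling, 0.038 with no filter and 0.039 with only the groups compared. With a library left out it ran from −0.06 to 0.086, RFXAP from −0.036 to 0.126, RFX5 from −0.027 to 0.053 and HLA-DMA from −0.202 to 0.015. At 20 μM B2M was 0.011 and TAPBP 0.014 with no filter, and with a library left out they ran from −0.09 to 0.067 and −0.05 to 0.074. At 50 μM HLA-E ran from −0.128 to 0.057. Between the doses RFXANK was 0.017 in DESeq2, 0.024 with RLE scaling and 0.012 with no filter, and with a library left out ran from −0.041 to 0.106, HLA-DQA1 from −0.326 to 0.288, CIITA from −0.035 to 0.679, CALR from −0.042 to 0.078, PSME2 from −0.226 to 0.016 and HLA-DMA from −0.206 to 0.027. For 20 μM against cGAMP, CD74 ran from −0.057 to 0.053, TAPBPL from −0.187 to 0.028 and HLA-DMB from −0.147 to 0.372. For 50 μM against cGAMP TAPBPL was 0.011 in DESeq2, 0.021 with RLE scaling, 0.008 with no filter and 0.006 with only the groups compared, and ran from −0.074 to 0.12 with a library left out.

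Against cGAMP further calls were lost. At 20 μM CALR (0.0646 without cGAMP replicate 1, 0.066 without chlorquinaldol replicate 1) and HLA-DRB1 (0.0658 without cGAMP replicate 1, 0.0565 without chlorquinaldol replicate 2) did. HLA-DPA1 did in DESeq2 (0.125), with no filter (0.0743) and without cGAMP replicate 1 or 2 or chlorquinaldol replicate 1 or 3. At 50 μM TAPBP did (0.158 without cGAMP replicate 1). HLA-DRA did in DESeq2 (0.144), with no filter (0.132) and with only the groups compared (0.052). HLA-DRA also did without cGAMP replicate 1 or 2 or chlorquinaldol replicate 2 or 3. HLA-DMB did in DESeq2 (0.0853) and without cGAMP replicate 2 or 3 or chlorquinaldol replicate 1 or 2. HLA-DMB could not be fitted at 50 μM with only the groups compared, where it failed the filter.

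Same-numbered libraries did not visibly deviate together (18 pairs, correlations −0.113 to 0.0671, 0 above 0.1). These correlations cannot show whether same-numbered samples were handled together, and the labels do not say. With a replicate block 17 members were called higher or lower with cGAMP (TAPBPL lost), 25 at 20 μM (PDIA3 lost) and 27 at 50 μM, and HLA-DMB at 50 μM had log2 −2.46. Depth limits HLA-DMB, HLA-DQA1, HLA-DPA1, HLA-DPB1 and HLA-DOA, and shared HLA sequence and unknown strand limit every HLA, TAP1 and PSMB9 value. PSMB8 also overlaps PSMB9 by 568 bases on the opposite strand. On the same strand TAP2 overlaps AL669918.1 by 16948 bases, PSMB9 overlaps PSMB8-AS1 by 2360 bases and HLA-B overlaps HLA-C by 2640 bases. Strand information would not separate reads of these same-strand pairs, and their effect was not tested.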
